A study of Rattus norvegicus with 64 samples.

Results

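The dorsal hippocampus (HPCd) and the nucleus accumbens (ACB) of the same control rats were compared gene by gene. The comparison used the 16 control (CTL) rats, 8 males and 8 females which carry the odd animal numbers, each measured once in either region, which made 32 of the 64 RNA-Seq libraries of the series. They were Sprague Dawley rats that were housed individually on standard chow, were given reverse osmosis water in a sipper tube from postnatal day 26, and had their brains taken at postnatal day 80. Stages of the estrous cycle were not followed. The other 16 rats of the series drank a ration of the sweetener acesulfame potassium (ACE-K), and they served here only to repeat a result. The study's methods state that an ACB sample of the ACE-K group was removed as an outlier, but all 16 rats entered these repeats.

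The HPCd punch held dorsal CA1 and dorsal dentate gyrus, where glutamatergic pyramidal and granule neurons predominate and which serve spatial and episodic memory. The ACB, in the ventral striatum, consists mostly of GABAergic medium spiny projection neurons that receive dopamine from the midbrain, and it takes part in reward and motivation. Tissue punches of both regions also hold interneurons, astrocytes, oligodendrocytes, microglia and vessels. In such bulk samples, fewer cells of a type and less RNA per cell cannot be told apart.

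Both regions shared the stated library kit and sequencing format, with about 25 M single reads (M, mega) of 75 cycles per sample, but their counts were deposited as 2 tables that held very different numbers of reads. An HPCd library held between 14304052 and 27800442 reads counted on genes (median 19649945), and an ACB library held between 255545 and 387284 (median 336365). For the same rat, the HPCd library held between 41.5 and 99.7 times as many counts as the ACB library (median 62.9), so the ranges did not overlap. Every HPCd library came from the 1 table and every ACB library from the other, so region, library handling and the way reads were assigned to genes cannot be told apart in any value below. The number of counted reads also went with the region, except in the values given at equal depth. The strand setting used for counting, which decides whether reads from a gene are credited to it or to a gene on the opposite strand, is not given in the sources used here. Genes appear in the tables under Ensembl IDs without names. For that reason the labelled regions could not be checked against neuronal marker genes, and genes are given by ID only.

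Of the 32623 IDs in both tables, 16309 had at least 1 count in each region, 5290 were counted only in the HPCd, 1476 only in the ACB, and 9548 in neither. The IDs counted only in the HPCd included one with between 6 and 105185 counts per rat (median 6272.5), which had no count in any ACB library. Its share of the counts was at least 1463-fold higher in the HPCd, when 3 counts over the 16 ACB libraries are taken as the limit that a count of 0 allows. Its HPCd counts differed widely between rats, and without rat C101, which had the most, the limit was 887-fold. The ACB table had the reverse case. The most counted ID that was found only in the ACB had between 84 and 158 counts in all 16 rats (median 106.5) and none in the HPCd libraries with their far larger totals, an at least 36426-fold higher share in the ACB by the same limit. Both IDs were chosen after their values were seen, and intervals and limits of this kind cover counting error only.

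In raw reads, 482 IDs had more counts in the ACB than in the HPCd library of the same rat in all 16 rats, although the HPCd libraries held far more counts on genes. In single rats, between 1082 and 1446 IDs had more ACB than HPCd counts (median 1318). The 482 IDs carried between 57.7% and 62.5% of the ACB counts of a rat (median 60.6%) and between 0.0627% and 0.0705% of its HPCd counts. In the 16 ACE-K rats, 440 IDs met the same rule, and 408 of these were among the 482, which is 84.6% of the CTL list and 92.7% of the ACE-K list.

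Most IDs that were well counted in the HPCd had a low ratio between the regions. Among the 9574 IDs with a mean of at least 200 HPCd counts per rat, the ACB counts were 0.210% of the HPCd counts for the median ID, with an interquartile range of 0.129% to 0.411%. By contrast, all ACB counts together were 1.61% of all HPCd counts, and only 778 of the 9574 IDs (8.13%) lay above that ratio. For 5653 IDs (59.0%) the ratio was within 2-fold of the median. The upper end of the distribution was long, with 3.22% at the 95th percentile and 28.1% at the 99th, and 31 IDs had more ACB than HPCd counts over the 16 rats. Only 34 of the IDs had no ACB count at all. The rank correlation between the summed counts of the regions was 0.577 across these IDs, which are not independent replicates.

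**Figure D1:**
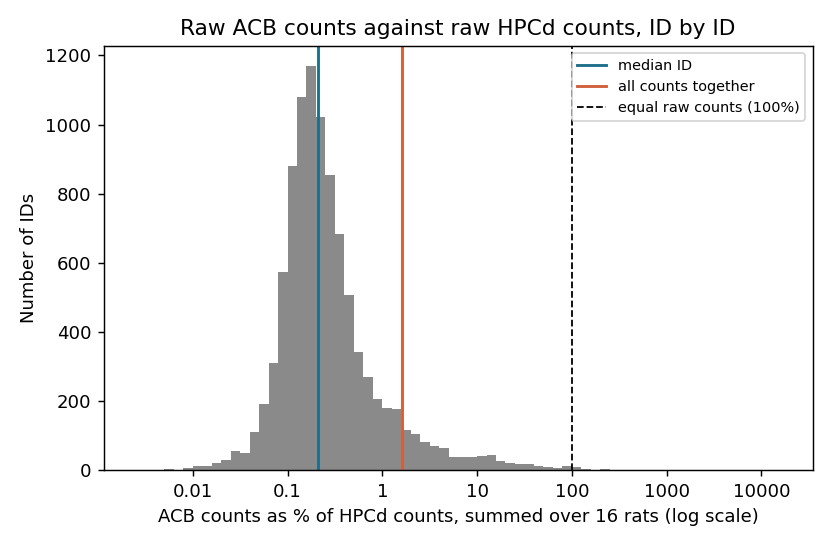
Histogram of the raw ACB counts of each ID as a percentage of its raw HPCd counts, summed over the 16 CTL rats, for IDs with a mean of at least 200 HPCd counts per rat (horizontal axis in percent, on a log scale; vertical axis, number of IDs; the 34 IDs at 0 are left out). Most IDs form 1 peak around the median of 0.210%, well below the 1.61% of all counts together, and a long tail extends to the right past equal counts at 100%.

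The 7180 IDs below the upper quartile of this ratio held between 79.5% and 81.4% of the HPCd counts of a rat, but between 7.20% and 12.6% of its ACB counts (median 8.56%). Rat C101 had the highest ACB share on these IDs. Seen from the HPCd level, the 261 IDs with a mean of at least 10000 HPCd counts held 34.2% of all HPCd counts and 9.47% of all ACB counts. In the ACB, the 2860 IDs with a mean of 1 to 10 HPCd counts held 8.59% of the counts, against 0.0522% in the HPCd. The median ID of that class had a mean of 0.0625 ACB counts per rat, whereas its most counted ID had a mean of 1677. Most weakly counted HPCd IDs were therefore also weak or at 0 in the ACB, and a minority with many reads made up the ACB share.

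To compare the libraries at equal depth, the HPCd counts of each rat were thinned at random, without replacement, to the ACB total of the same rat. At equal depth, counts were concentrated on far fewer IDs in the ACB than in the HPCd. The 10 most counted IDs of a library held 8.98% ± 0.429 of the counts in the HPCd (SD, n = 16) and 41.8% ± 1.92 in the ACB (SD, n = 16). The difference of 32.8 percentage points was present in 16 of 16 rats (2-sided exact permutation test over the signs of the rats' differences, P = 3.05e-05, the smallest value that 16 rats allow). The most counted ID alone held between 1.71% and 2.07% of an HPCd library and between 14.8% and 20.98% of an ACB library. The number of most counted IDs that together hold 50% of the counts was between 703 and 806 in the HPCd (median 742.5) and between 23 and 39 in the ACB (median 29.5). None of these ranges overlapped.

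**Figure D2:**
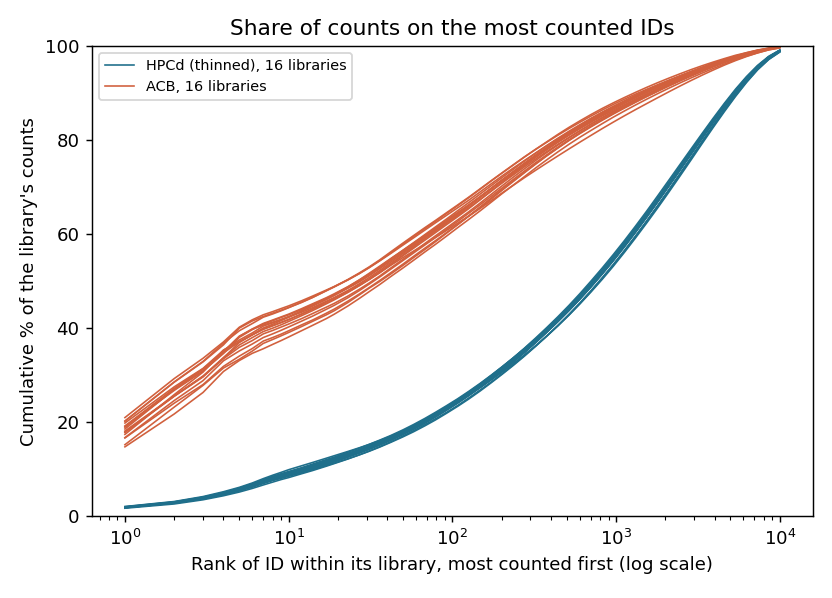
Cumulative share of a library's counts (vertical axis, percent) against the rank of its IDs, most counted first (horizontal axis, log scale), with 1 line for each of the 16 HPCd libraries, thinned to ACB totals, and the 16 ACB libraries. The ACB lines start between 14.8% and 20.98% at rank 1 and stay above all HPCd lines, which start between 1.71% and 2.07%.

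Fewer IDs were detected in the ACB at the same number of reads. An HPCd library had 12477 ± 274 IDs with at least 1 count (SD, n = 16), and an ACB library had 10729 ± 472 (SD, n = 16). From the HPCd to the ACB, the number dropped by 1748 on average and was lower in 16 of 16 rats (2-sided exact permutation test, P = 3.05e-05, again the smallest possible value). At full depth, the HPCd libraries had between 17247 and 18083 IDs with a count. The P values of the 2 single values were the same after Benjamini-Hochberg adjustment.

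The most counted IDs also differed in identity. By mean CPM, the counts of an ID relative to all counts on genes in its library, the 10 most counted IDs of the regions shared 1 ID, the 100 most counted shared 9, and the 1000 most counted shared 178. The IDs at ranks 1 to 10 of the HPCd lay between ranks 3 and 149 in the ACB. Those at ranks 1 to 10 of the ACB were spread between ranks 8 and 13806 in the HPCd. Thus the HPCd's 10 leading IDs were also high in the ACB, but most of the ACB's 10 leading IDs were low in the HPCd.

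Libraries of a region resembled each other closely, and the 2 libraries of a rat did not. Across the 7591 IDs with a mean of at least 5 counts over both regions at equal depth, Pearson's r of log2(CPM + 3) was between 0.941 and 0.961 for pairs of HPCd libraries. It was between 0.874 and 0.911 for pairs of ACB libraries. Between the HPCd and the ACB library of the same rat, r was between -0.176 and -0.0455 (median -0.134). Between libraries of different rats it was between -0.185 and -0.0208, so a rat's own pair did not stand apart from the pairs of other rats. These values describe likeness across IDs, which are not replicates, and they depend on which IDs enter. An ID could enter by being high in 1 region only. With the 8313 IDs that had a mean of at least 5 counts in the HPCd, r for the same rat was between 0.394 and 0.511. With the 3723 IDs that had this mean in the ACB, it was between -0.227 and 0.0115. With the 19486 IDs that had any count, r for the same rat was between 0.406 and 0.542. With the 2644 IDs that had a mean of at least 5 counts in both regions, it was between -0.0274 and 0.209. In each of these selections, libraries of the same region were more alike than any pair across regions.

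**Figure D3:**
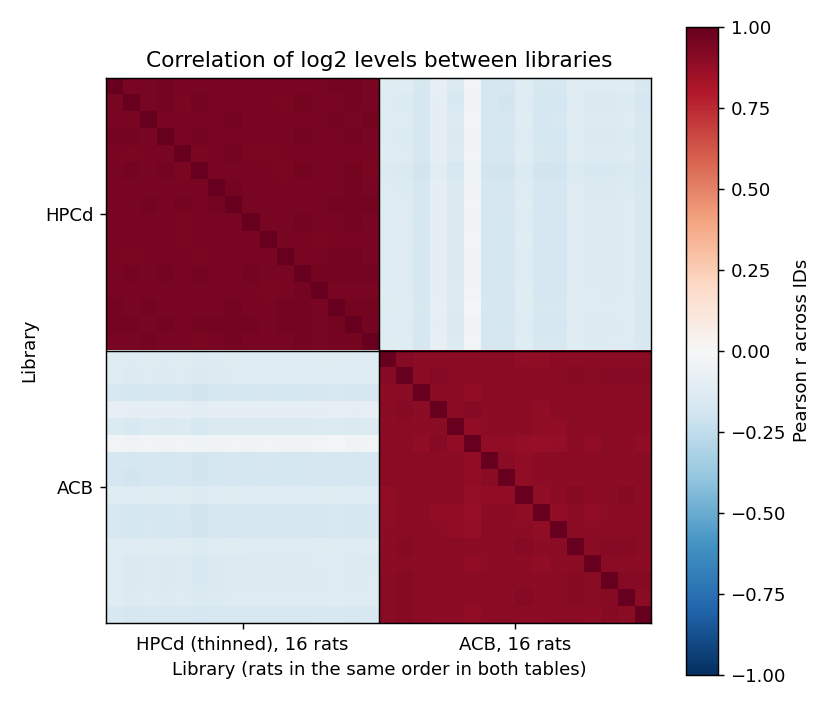
Pearson correlation of log2(CPM + 3) across 7591 IDs between all pairs of the 32 libraries at equal depth (color scale from -1 to 1; rats in the same order in both regions on both axes). The 2 blocks within a region are high, at 0.874 or more, and the blocks between the regions lie between -0.185 and -0.0208, with no diagonal that would mark the pairs of a rat. The sign between the regions depends on how the IDs were selected.

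To test which IDs differed between the regions, counts at full depth were compared with edgeR's quasi-likelihood test with each rat as a block, after TMM normalization, which scales the libraries to each other by a trimmed mean of the ratios of their genes. Of 9398 IDs with at least 15 CPM in at least 8 libraries, 2255 (24.0%) were higher in the ACB and 3533 (37.6%) were higher in the HPCd, at an adjusted p under 0.05 and a change of at least 2-fold. In all, 61.6% of the IDs tested were called. The split between the directions depended on the scaling. The TMM factors were between 0.418 and 0.525 in the ACB and between 2.10 and 2.22 in the HPCd, and the median log2 fold change (ACB relative to HPCd) of all IDs tested was -0.60. With library totals alone, 1370 IDs were higher in the ACB and 7272 in the HPCd, and the median log2 fold change was -2.80. With DESeq2's size factors, the numbers were 1955 and 5074 at a median of -1.14. Between TMM and library totals, 4903 IDs were called in the same direction and 129 in opposite directions.

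The sizes of the changes also depended on the scaling. After TMM, IDs higher in the ACB had a median log2 fold change of 4.31, and 52.8% of them were past 16-fold and 36.6% past 64-fold. IDs higher in the HPCd had a median of -1.58, and 2.15% were past 16-fold. With library totals alone, the medians of the called IDs were 4.80 and -3.17, and 58.2% and 17.4% were past 16-fold. Of the IDs called after TMM, 34 had no count in any HPCd library and 8 had none in any ACB library, and with these set at the limit that a count of 0 allows, the medians were 4.31 and -1.58. The filter on low values acted unequally here, since 15 CPM is about 5 counts in an ACB library and far more in an HPCd library.

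With the HPCd counts thinned to the ACB totals, 2347 of 9468 IDs (24.8%) were higher in the ACB and 3208 (33.9%) were higher in the HPCd, 58.7% in all. Of the IDs tested in both fits, 5374 were called in the same direction and 0 in opposite directions, which was 93.7% of the calls at full depth and 98.6% of the calls after thinning. Equal depth thus moved neither number by over 1.5 times and turned no direction among shared calls. The same fit in the 16 ACE-K rats, which are other animals measured in the same 2 tables, called 5106 of the IDs in the same direction at full depth (89.6% of the CTL calls and 91.5% of the ACE-K calls among IDs tested in both) and 0 in the opposite direction. In CTL males and females analyzed separately, 3926 IDs were called in the same direction (81.0% and 87.3%) and 0 in opposite directions.

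**Figure D4:**
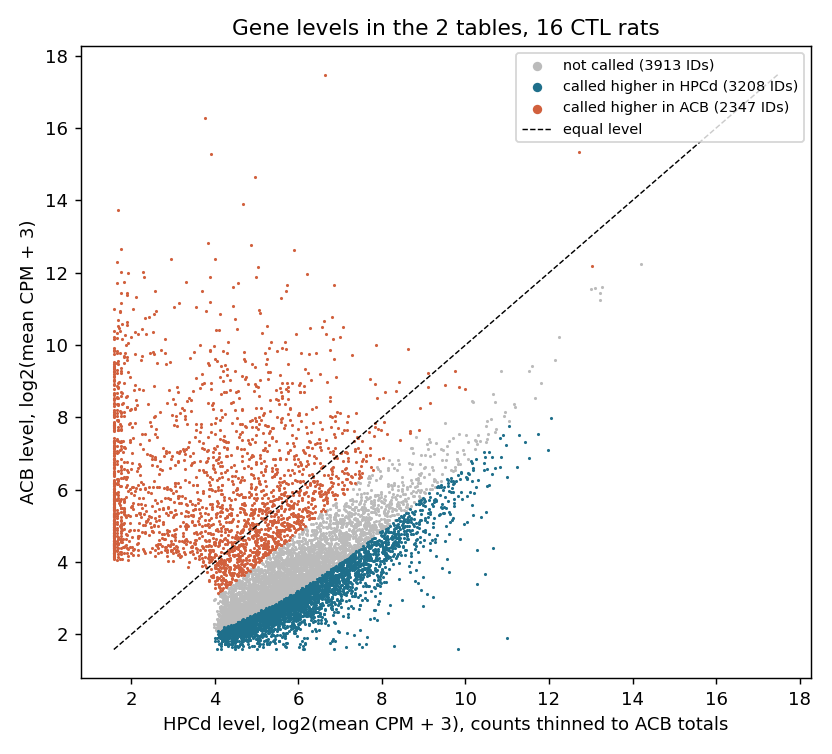
Mean ACB level against mean HPCd level of each ID tested at equal depth, both as log2(CPM + 3) over 16 CTL rats relative to library totals, with IDs colored by the calls of edgeR's test after TMM normalization and a dashed line at equal levels. The 2347 IDs called higher in the ACB fan out upward at most HPCd levels, whereas the 3208 IDs called higher in the HPCd form the lower edge of a band that lies below the dashed line, since TMM sets its zero within that band; the empty lower left corner is the filter at 15 CPM.

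Of the IDs called higher in the ACB, the most counted was ENSRNOG00000029042. It had between 1311 and 2505 counts per rat in the HPCd (median 1951.5) and between 45830 and 74305 in the ACB (median 61898.5). Its raw ACB counts were higher in all 16 rats, and its level relative to library totals was 93.5 ± 7.82 CPM in the HPCd and 182277 ± 17753 CPM in the ACB (SD, n = 16). Its log2 fold change was 13.11 (SE 0.08, edgeR's quasi-likelihood test, adjusted p = 6.64e-88) after TMM and 10.91 with library totals alone. It was the ID that took the largest mean share of the ACB counts, and in the HPCd it ranked 2270.

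ENSRNOG00000032882 followed, with between 139 and 319 HPCd counts (median 215) and between 19472 and 31209 ACB counts (median 26655). Its level was 10.1 ± 1.48 CPM in the HPCd and 78870 ± 4162 CPM in the ACB (SD, n = 16). The groups lay far apart, with a log2 fold change of 15.12 (SE 0.08, adjusted p = 3.98e-90 by the same test) after TMM and 12.91 with library totals alone. It ranked 2 in the ACB and 9450 in the HPCd.

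Of the IDs called higher in the HPCd at full depth and after thinning, ENSRNOG00000016516 had the most counts. It had between 54167 and 173944 counts in the HPCd (median 85140) and between 43 and 151 in the ACB (median 77). Its level was 4260 ± 1010 CPM in the HPCd and 250 ± 83.4 CPM in the ACB (SD, n = 16). No ACB library reached the lowest HPCd library, and the log2 fold change was -1.89 (SE 0.10, adjusted p = 2.29e-28) after TMM and -4.10 with library totals alone.

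ENSRNOG00000011751 had between 44019 and 109546 HPCd counts (median 77765) and between 30 and 95 ACB counts (median 41). Its level was 4016 ± 327 CPM in the HPCd and 134 ± 37.5 CPM in the ACB (SD, n = 16), with a log2 fold change of -2.72 (SE 0.08, adjusted p = 8.58e-44) after TMM and -4.93 with library totals alone. For both IDs the ACB counts of single rats were small numbers, which limits the precision of a rat's own ratio. The direction of the most counted HPCd ID of all turned with the scaling. Its log2 fold change was 0.20 (SE 0.06) after TMM, which was under 2-fold and not called, -0.33 with DESeq2's size factors and -2.01 with library totals alone.

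Sex was used to ask whether the region difference was the same in males and females. In the test of the region by sex interaction, 3 of 9398 IDs had an adjusted p under 0.05, a share of 0.0319%. For 2 of them, the counts of males and females were far apart in 1 region and overlapped in the other, with the regions exchanged between the IDs.

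ENSRNOG00000037911 had between 984 and 1667 counts in ACB libraries of females (median 1182.5) and between 0 and 2 in those of males (median 1). In the HPCd, it had between 9 and 24 counts in females (median 13) and between 3 and 43 in males (median 9). The sexes were separated without overlap in the ACB and overlapped in the HPCd. The female minus male difference in log2 fold change was 10.78 (SE 0.37, adjusted p = 1.57e-47).

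ENSRNOG00000051257 showed the reverse arrangement. It had between 673 and 1790 counts in HPCd libraries of females (median 990.5) and between 0 and 1 in those of males (median 0). In the ACB it had between 3 and 9 counts in females (median 6) and between 3 and 8 in males (median 4), which overlapped. The interaction was -10.95 (SE 0.61, adjusted p = 7.64e-30), a size that depends on the small count edgeR adds to values near 0. The ID with the third call, ENSRNOG00000015941, had a smaller interaction of 1.08 (SE 0.23, adjusted p = 0.0215). Its levels were 12.9 ± 1.39 CPM in males and 10.7 ± 1.22 CPM in females in the HPCd, and 54.7 ± 13.9 CPM in males and 96.2 ± 31.7 CPM in females in the ACB (SD, n = 8 each). With the HPCd counts thinned, its interaction was 0.84 (SE 0.43, adjusted p = 0.993 by the same test), a similar size with a larger error. In the ACE-K rats its interaction was 0.08 (adjusted p = 0.995 by the same test), while the first 2 IDs had 10.06 and -8.45 there, again past the threshold.

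**Figure D5:**
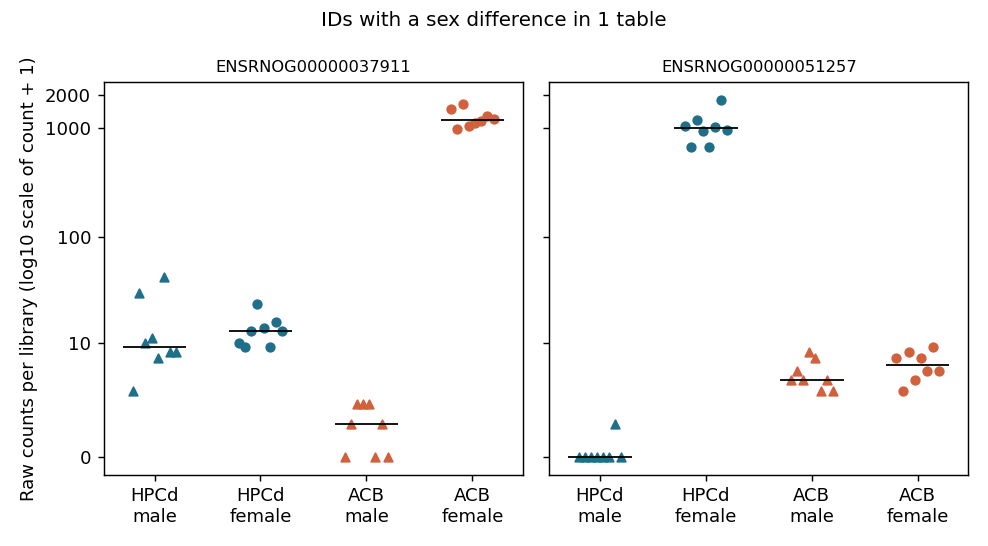
Raw counts per library of the 2 IDs with the largest region by sex interaction in male (triangles) and female (circles) CTL rats, 8 rats per group, with the group median as a line (vertical axis in counts, on a log10 scale of count + 1). Females have between 984 and 1667 counts of ENSRNOG00000037911 only in the ACB, and between 673 and 1790 counts of ENSRNOG00000051257 only in the HPCd.

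Tests of sex within each region, added after the interaction was seen, called 11 of 8543 IDs in the HPCd (0.129%; 7 higher in females and 4 in males) and 6 of 4772 IDs in the ACB (0.126%; 4 and 2), with an adjusted p under 0.05. With the HPCd counts thinned, 11 of 9323 IDs were called (0.118%; 6 higher in females and 5 in males). These were only in part the IDs called at full depth. For example, ENSRNOG00000016957 was called only after thinning and ENSRNOG00000052721 only at full depth. The calls at full HPCd depth and those in the ACB shared 0 IDs, of 11 and 6, numbers too small to read more from. Each region was also filtered on its own, at 15 CPM in at least 4 libraries. An ID low in 1 region could therefore not be called there. ENSRNOG00000037911, called in the ACB, had at most 2.19 CPM in an HPCd library. ENSRNOG00000052721, called in the HPCd, had at most 9.06 CPM in an ACB library. The missing overlap thus does not show that sex differences were distinct between the regions. Of the 4 HPCd IDs higher in males, 3 were counted almost only in males. The most counted, ENSRNOG00000057231, had between 1082 and 1709 counts in males and between 0 and 2 in females, and ENSRNOG00000060496 had between 616 and 1137 in males and between 0 and 1 in females. The third had between 618 and 1070 in males and between 0 and 2 in females. In the ACB, the 3 IDs together had between 1 and 9 counts in every male (median 4) and no count in any female. The 3 IDs were picked by their sex difference in the HPCd, so their separation of the sexes there was given in advance. In the ACB, their sum also separated the labelled sexes, by as little as 1 count in a male. Each ID alone was at 0 in some ACB library of a male. Their summed ACB counts in males were 0.147% of their HPCd counts, beside 0.210% for the median ID above. The female-biased ENSRNOG00000051257 did not separate the sexes in the ACB, where it had a few counts in every rat.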

How the data were processed

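Frozen tissue punches of 2 regions were sequenced from each rat. Per the study's methods and the labels, the authors used FastQC for read quality, Trimmomatic for trimming, STAR for alignment to Rnor6.0 and HTSeq for counting, and they deposited raw counts, 1 table per region, with no normalization. Versions, annotation release and strand setting are not given in the sources used here. The 5 summary rows of HTSeq in the HPCd table held reads assigned to no gene (20.4% to 24.3% of a library) or to several (0.536% to 0.572%) and were left out. Columns were matched to rats through the number each column name carries, and 0 columns stayed unmatched.

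From the deposited counts, IDs with at least 15 CPM in at least 8 libraries were tested with edgeR 4.0.16 (R 4.3.3; TMM, quasi-likelihood test, Benjamini-Hochberg adjustment), with the rat as a block. Fold changes are ACB relative to HPCd, and calls needed an adjusted p under 0.05 and at least 2-fold (no fold limit for sex and region by sex). The test itself gives no SE. Each SE was derived as the absolute log2 fold change divided by the square root of the test's F statistic. DESeq2 1.42.0 was an alternative. Thinning used NumPy 2.4.6, and the exact permutation tests used SciPy 1.17.1. The fits were tested on simulated data in which few IDs differed between the regions, equally in both directions. That test does not cover the scaling where most IDs differ, as here.

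The pairing comes from the animals. After centering within each region, the 2 libraries of a rat deviated together little, with correlations between -0.194 and 0.0597 over 972 IDs, and 0 rats were most like themselves. For every pair of libraries of a region, counts differed beyond sampling noise, with a chi-square divided by its degrees of freedom of 5.65 or more in the HPCd and 1.58 or more in the ACB. Samples of a group were separate animals.

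Members and lists were chosen with earlier results of these data known. No ID could be paired with a gene symbol, so gene lists, marker checks, the share of mitochondrially encoded counts and the comparison of opposite-strand genes were not applied. Instead, the 2 most counted IDs in each direction among those called at full depth and after thinning were named, and all IDs called for region by sex.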

Additional observations from a re-analysis of the deposited data

Results flagged for a closer look

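The region difference depended on sex for 3 IDs by the test of the interaction itself (edgeR's quasi-likelihood test over 9398 IDs). The female minus male difference in log2 fold change (ACB relative to HPCd) was 10.78 for ENSRNOG00000037911, -10.95 for ENSRNOG00000051257 and 1.08 for ENSRNOG00000015941. The last of these IDs was not called with the HPCd counts thinned or in the ACE-K rats. In the HPCd table, reads that HTSeq assigned to no gene made up a median of 21.7% of a library, between 20.4% and 24.3%, and these reads entered no comparison. The ACB table has no such row, so the shares cannot be compared. Groups of 16 libraries were not searched for single outlying values.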

How the results depend on the processing

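Without the filter on low values, 6173 IDs were called higher in the ACB and 6191 in the HPCd, of 23075 tested. After thinning, the numbers without the filter were 5053 and 4491, of 19486 tested, so more IDs were called higher in the ACB. At least 10 counts in 8 libraries gave 3026 higher in the ACB and 5701 in the HPCd, of 14532 tested. Library totals alone gave 1370 and 7272, and 1368 and 7287 after thinning. In females alone after thinning, 2072 IDs were higher in the ACB and 1982 in the HPCd (of 7532 tested). In males the numbers were 1982 and 2427 (of 7556), so after thinning the larger side differed between the sexes. At full depth the HPCd side was larger in both. The numbers there were 2049 and 2562 in females (of 8658), and 1980 and 2960 in males (of 8567). A difference between the sexes in these numbers was not tested. Region by sex had 21 calls without the filter and 6 with HPCd counts thinned, an alternative chosen after seeing the data, as were the ACE-K rats for that test. The filters change which IDs are tested, and for the other settings the cause was not tested. Leaving out 1 rat gave 2220 to 2327 IDs higher in the ACB and 3152 to 3557 in the HPCd, and 2307 to 2425 and 2746 to 3216 after thinning; the lowest HPCd numbers were without rat C101.

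The fit without pairing by rat called 2258 and 3487 IDs, and 2352 and 3192 after thinning, and 3 for region by sex, so the block moved no count by over 1.5 times. The 4 IDs named for the region difference kept their direction and call in all 224 repeats of their fits. They were picked among IDs already called at full depth and after thinning, and most repeats left out only 1 rat. This outcome was therefore largely fixed by the choice of the IDs. Of the IDs called for region by sex, ENSRNOG00000015941 lost its call after thinning at an interaction of 0.84 (adjusted p = 0.993 by edgeR). Both single values kept their sign in males, females and ACE-K rats. Their repeat without mitochondrially encoded genes was not run, since the IDs could not be assigned. ACB depth limits low IDs to a few counts per rat.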
